A study of Mus musculus with 26 samples.

Results

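The genes described here encode subunits and assembly factors of mitochondrial complex I (NADH:ubiquinone oxidoreductase), measured by RNA-seq in mouse embryonic stem cells (ESCs). They were taken by name: every gene whose symbol begins with Nduf and that had 10 or more counts summed over all 26 libraries. This gave 45 genes of the 24421 in the count table, and 0 Nduf genes fell under 10 counts. All 45 were among the 15238 genes that passed the filter on low counts. By role, 3 encode core subunits of the N module, 4 core subunits of the Q module, 29 accessory subunits and 7 assembly factors, and the remaining 2 are Ndufa4 and Ndufa4l2. Since whole chromosomes 6, 8 and 14 were shifted in some groups, the 39 genes outside them are described apart from the 4 on chromosome 6 (Ndufa4, Ndufa5, Ndufa9 and Ndufb2) and the 2 on chromosome 8 (Ndufa13 and Ndufb7). Chromosome 14 held 0 of the 45.

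The study compared forms of estrogen-related receptor beta (ERRb, gene Esrrb), an orphan nuclear receptor of the naive pluripotency network. There were 7 groups with 2 clones each, so 14 clones in all, and every clone received doxycycline at 2 µg/ml for 3 days. The ERR beta -/- ESCs carried wild-type ERR gamma (KO/ERRg-wt, clones 14-1-10 and 14-11), an ERR beta mutant that cannot bind coactivators (KO/ERRb-AF2M6, clones 32-25 and 32-31), one that cannot bind the transcription factor TFIIH (KO/ERRb-DBDm6, clones 10-24 and 10-26), one that cannot bind DNA (KO/ERRb-DBDm3, clones 9-6 and 9-8), wild-type ERR beta (KO/ERRb-wt, clones 8-3 and 8-4) or no ectopic receptor (KO/Mock, clones 12-1 and 12-3). The wild-type ESCs also carried no ectopic receptor (WT/Mock, clones 5-2 and 5-5). For each clone 2 libraries were summed, except in KO/ERRg-wt, which had 1 library per clone. The promoter that drives the receptors is not given in the sources used here. Clones were seeded at 1600 cells on poly-L-ornithine and laminin in N2B27-LIF/PD/CH medium.

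Complex I is the entry point of electrons from NADH into the respiratory chain and couples their transfer to ubiquinone to proton pumping across the inner mitochondrial membrane. Its N module oxidises NADH, its Q module reduces ubiquinone, and its membrane arm pumps protons. The membrane arm's core subunits are encoded by the mitochondrial genome. All genes described here are nuclear, and the table held 0 mitochondrial genes. Estrogen-related receptors are known to activate genes of oxidative phosphorylation in several tissues, through the element TNAAGGTCA and together with PGC-1 coactivators.

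Promoters of the genes were searched for that element and for 3 motifs common in promoters of respiratory genes, on both strands, from 250 bases before to 50 bases after the transcription start (RefSeq, GRCm38.p6). Of the 45 genes, 39 matched a promoter by symbol, with 41 windows. TNAAGGTCA was found in 1 of the 39, Ndufb4 (2.56%, against 1.43% of all 27025 genes with a window), 57 bases before the start. The NRF1 core GCATGCGC was found in 5 (12.8%, against 3.05% of all genes), namely Ndufa6, Ndufa8, Ndufa11, Ndufaf4 and Ndufaf5. The YY1 motif AAGATGGC was found in 7 (17.9%, against 3.19%), namely Ndufa3, Ndufa9, Ndufb8, Ndufc1, Ndufs4, Ndufs6 and Ndufs7, always on the gene's strand and between 22 and 38 bases after the start. The ETS motif ACCGGAAG was found in 4 (10.3%, against 2.6%), namely Ndufaf1, Ndufb6, Ndufs3 and Ndufs8. The 4 sets of genes did not share a member. NRF1 core matches on opposite strands overlapped in Ndufa11, Ndufaf4 and Ndufaf5. A match is only a match of letters, and its absence says only that these letters are not in the window. Promoters of 3 genes are printed 5′ to 3′ on the gene's strand with the matches in capitals. Ndufb4 is shown because it holds the ERR element, and Ndufa6 and Ndufaf4 because both hold the NRF1 core while their levels moved in opposite directions between the groups. The windows are chr16:37654319-37654618 (minus strand), chr15:82354242-82354541 (minus strand) and chr4:24897833-24898132 (plus strand).
Ndufb4: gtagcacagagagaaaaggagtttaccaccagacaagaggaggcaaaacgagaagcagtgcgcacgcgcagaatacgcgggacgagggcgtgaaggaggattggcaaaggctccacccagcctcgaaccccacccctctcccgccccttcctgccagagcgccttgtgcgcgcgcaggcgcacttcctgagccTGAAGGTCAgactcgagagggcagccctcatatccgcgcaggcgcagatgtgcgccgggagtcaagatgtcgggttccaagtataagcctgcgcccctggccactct
Ndufa6: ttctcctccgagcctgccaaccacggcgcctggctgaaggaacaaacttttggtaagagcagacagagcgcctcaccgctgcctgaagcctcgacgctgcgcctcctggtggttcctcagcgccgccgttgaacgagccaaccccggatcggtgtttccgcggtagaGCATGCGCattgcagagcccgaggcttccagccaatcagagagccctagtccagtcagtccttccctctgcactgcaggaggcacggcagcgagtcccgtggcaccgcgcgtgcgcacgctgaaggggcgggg
Ndufaf4: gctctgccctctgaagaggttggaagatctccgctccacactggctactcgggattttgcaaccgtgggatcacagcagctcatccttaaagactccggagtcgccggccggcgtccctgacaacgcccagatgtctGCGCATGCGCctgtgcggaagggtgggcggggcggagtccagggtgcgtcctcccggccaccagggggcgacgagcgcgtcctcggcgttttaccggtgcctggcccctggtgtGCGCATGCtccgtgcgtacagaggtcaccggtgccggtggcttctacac

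Libraries held 21276790 to 30021667 counts and the summed clones 25103562 to 54105869. Values are CPM, read counts scaled by TMM-adjusted library totals. All 7 ESC markers were expressed in each group, with a summed level of 3310 to 4540 CPM over the clones. Summed levels were 0.864 to 5.51 CPM for 6 fibroblast feeder markers, 1.58 to 9.25 CPM for 6 primitive endoderm markers, 8.83 to 39.8 CPM for 4 markers of primed epiblast and 22.6 to 53.7 CPM for 4 neural markers, of which Tubb3 gave most. Fibroblast markers had between 1 and 3 genes at 0 in each group. Summed primed epiblast markers differed within groups, at 12.3 and 31.3 CPM in the KO/ERRb-AF2M6 clones and 16.5 and 39.8 CPM in the KO/ERRb-DBDm3 clones, against 19.7 and 21.8 CPM in KO/Mock and 8.83 and 10.1 CPM in WT/Mock. Their part in the results was not tested. In bulk RNA, fewer cells of a type and less RNA per cell cannot be told apart. Esrrb averaged 277 ± 0.744 CPM in KO/Mock and 581 ± 29.9 CPM in WT/Mock (SD, n = 2 clones each), so the knockout did not abolish reads on the gene's exons, and these counts do not tell transcripts of the locus from those of a construct. Esrrb was also 471 ± 8.03 CPM in KO/ERRg-wt, which carried no Esrrb construct. Esrrg was 177 ± 73.8 CPM in KO/ERRg-wt and at most 0.12 CPM on average elsewhere. Labels name clones but not their origin, so p-values measure the spread between clones of a group.

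Levels per kilobase of exon spanned a wide range. Ndufa4, now counted with complex IV (cytochrome c oxidase), was highest at 583 CPM per kb on average over the 14 clones. It was followed by the accessory subunits Ndufb8 (231 CPM per kb), Ndufb9 (200 CPM per kb) and Ndufb7 (166 CPM per kb). Ndufa4l2, a paralogue of Ndufa4 that is induced by hypoxia, was lowest at 0.881 CPM per kb. Next lowest were Ndufaf5, a hydroxylase that modifies Ndufs7, at 6.87 CPM per kb, Ndufab1, the mitochondrial acyl carrier protein, at 8.44 CPM per kb, Ndufaf7, a methyltransferase that acts in assembly, at 10.2 CPM per kb, and Ndufaf4 at 13.8 CPM per kb. The 7 assembly factors all lay between 6.87 and 26.5 CPM per kb. Core subunits of the N module (Ndufv1, Ndufv2 and Ndufs1) lay between 59.9 and 120 CPM per kb.

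**Figure D1:**
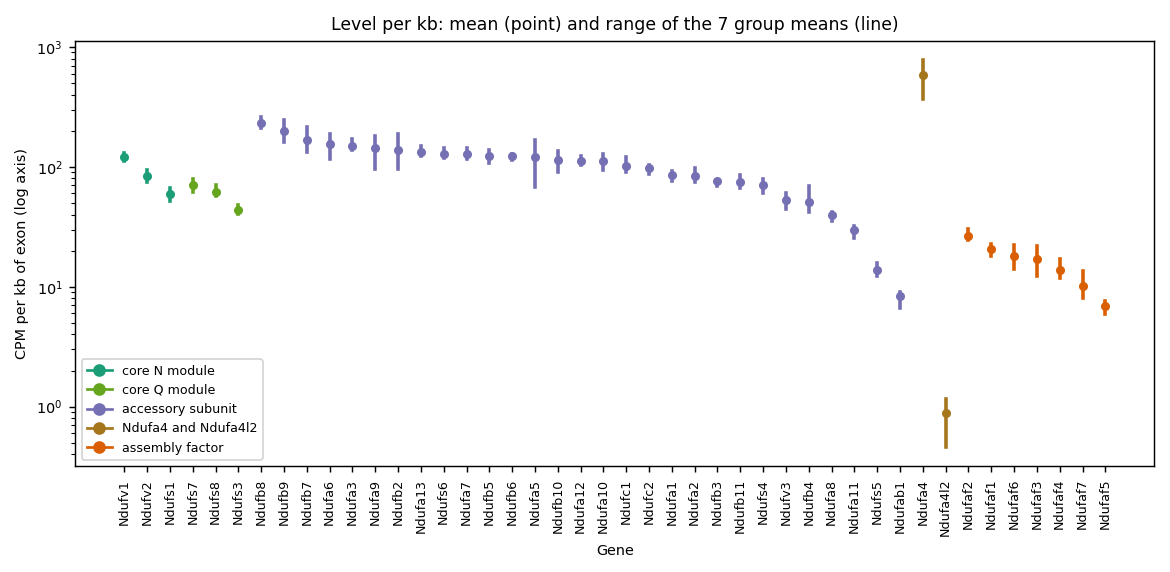
Level of 44 genes in CPM per kb of exon, on a log axis, grouped by role. Points are means over the 14 clones and lines span the 7 group means. Ndufa4 stands highest, the assembly factors lie below the core subunits, and Ndufa4l2 is lowest.

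Some of these levels are uncertain because sequence is shared. Reads that map to several places were not counted, so a gene with a close copy loses reads. Ndufs5 shared 95.1% of its exon bases on the same strand with BC002163. Of windows of 100 bases, 33.4% in Ndufb4 were identical to a stretch of Ndufb4c, 19.9% in Ndufs3 to Gm12251, 17% in Ndufb9 to Gm49356 and 9.5% in Ndufab1 to Gm4459 or Ndufab1-ps. Reads over shared exon bases were given to each gene, so differences between groups of Ndufs5 can include reads of BC002163. For the other genes named here, levels can lack reads that also map to the copies.

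A minority of complex I genes differed between KO/Mock and WT/Mock, in both directions. Chromosome 14 also differed, with a median log2 ratio to KO/Mock of 0.6 and 0.61 in the WT/Mock clones. Whether the loss of Esrrb or another difference between the clones moved the genes was not tested. Outside chromosomes 6, 8 and 14, 5 of 39 were higher and 5 lower in KO/Mock than in WT/Mock (12.8% each way), against 18.8% higher and 17.9% lower of the 13194 genes tested there. Counts in each direction were thus below the background. The median log2 fold change of the 39 genes was -0.012, against 0.009 for all genes. Leaving out any 1 of the 4 clones lowered the number of genes called, both among the 39 and among all genes. Log2 fold changes of the called genes kept their sign. They lay between 0.29 and 0.32 for Ndufb10 (0.3 with all clones) and between 0.42 and 0.65 for Ndufaf4 (0.53 with all clones). Only Ndufb4 and Ndufaf7 were called without each of the 4 clones in turn.

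The methyltransferase gene Ndufaf7 had 17.6 and 19.5 CPM in the KO/Mock clones, against 34.1 and 28.3 CPM in the WT/Mock clones. The groups did not overlap, but neither did they for most of the 39 genes, and the share of all genes was not counted. The log2 fold change of Ndufaf7 was -0.75 ± 0.125 (SE, adjusted p = 0.00141). Ndufb4, an accessory subunit of the distal membrane arm and the gene with the ERR element printed above, had 18.6 and 19.9 CPM in KO/Mock, against 25.8 and 26.4 CPM in WT/Mock. Its log2 fold change was -0.44 ± 0.0768 (adjusted p = 0.00175). Ndufa6, an accessory subunit of the matrix arm that binds the acyl carrier protein, had 66.6 and 63.1 CPM in KO/Mock, against 82.8 and 80.8 CPM in WT/Mock (log2 fold change -0.33, adjusted p = 0.00492). Also lower were Ndufaf3, an assembly factor of the Q module (-0.33, adjusted p = 0.0382), and Ndufv2, a core subunit of the N module (-0.22, adjusted p = 0.0205). Ndufaf4, the partner of Ndufaf3 in assembly, moved the other way. It had 60.3 and 63.3 CPM in KO/Mock, against 39.4 and 46.2 CPM in WT/Mock, with a log2 fold change of 0.53 ± 0.112 (adjusted p = 0.00438). The other 4 higher genes were all accessory subunits, with log2 fold changes of 0.30 for Ndufb10, 0.28 for Ndufa1, 0.27 for Ndufa11 and 0.25 for Ndufs6. None of the 4 core subunits of the Q module was called. Summed markers of other cell types also differed between these groups. Primitive endoderm markers were at 2.23 and 2.88 CPM in the KO/Mock clones, against 8.98 and 9.25 CPM in the WT/Mock clones. Of these sums Gata4 gave most (1.44 CPM in KO/Mock and 7.39 CPM in WT/Mock). Neural markers were at 42.1 and 53.4 CPM in KO/Mock, against 27.3 and 28.4 CPM in WT/Mock, mostly from Tubb3 (46.3 and 24.3 CPM). The part of these markers in the changes was not tested.

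**Figure D2:**
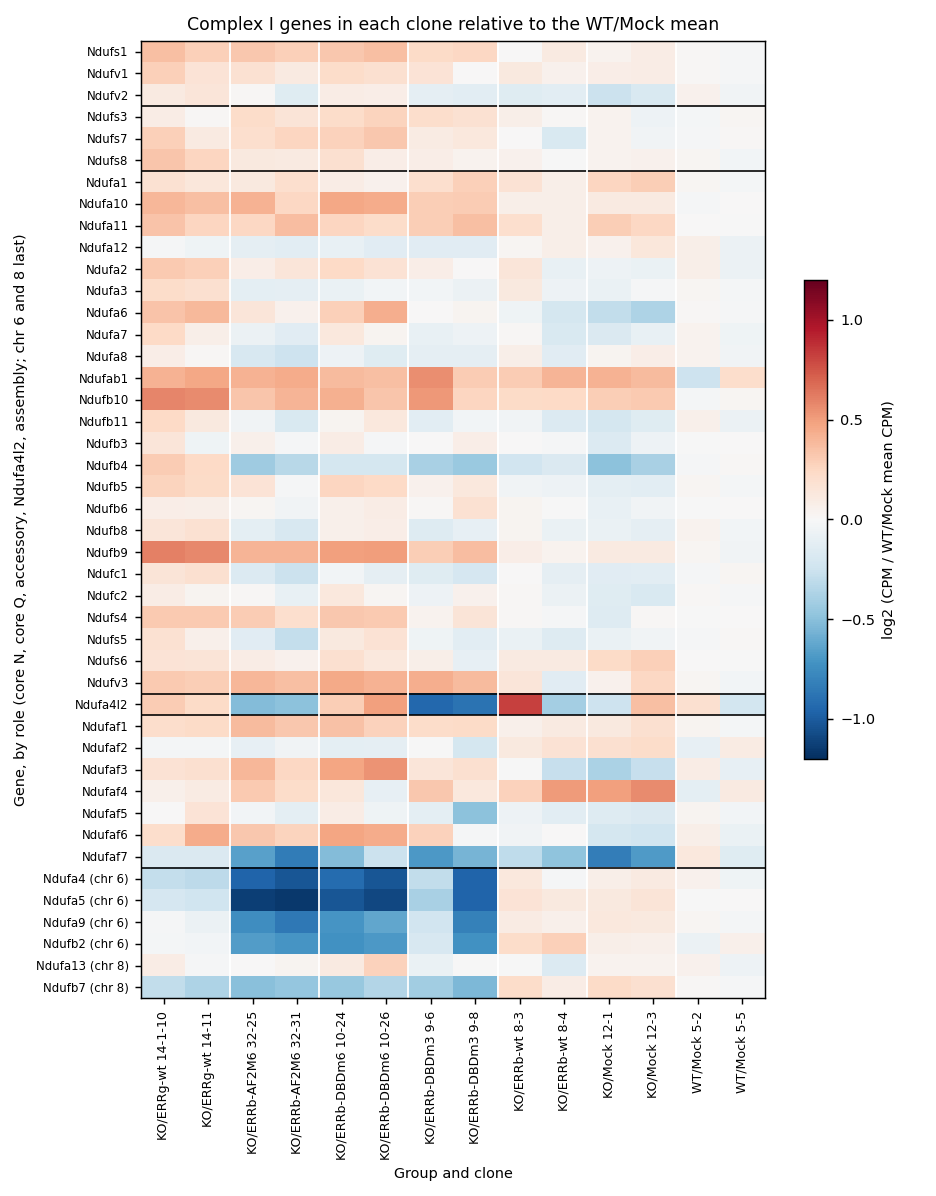
Level of 44 genes in each of the 14 clones as log2 of CPM over the WT/Mock mean, red for higher and blue for lower. Rows are grouped by role, with genes of chromosomes 6 and 8 last. Ndufb4 and Ndufaf7 are blue in both KO/Mock clones, and the chromosome 6 genes are darkest blue in the KO/ERRb-AF2M6 and KO/ERRb-DBDm6 clones and KO/ERRb-DBDm3 clone 9-8.

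With wild-type ERR beta put back, 0 of the 39 genes were called in KO/ERRb-wt over KO/Mock by edgeR, against 1.11% higher and 0.811% lower of all genes. DESeq2 called 0 as well, and 5 genes had an unadjusted p under 0.05, a threshold for which the share of all genes was not counted. Those 5 were Ndufaf7 (log2 fold change 0.36), Ndufb4 (0.24), Ndufa6 (0.21), Ndufa1 (-0.16) and Ndufs6 (-0.15). The median of the 39 genes was 0.051, against 0.005 for all genes. Ndufb4 had 22.2 and 23.1 CPM in the KO/ERRb-wt clones, which lay above both KO/Mock clones (18.6 and 19.9 CPM) and below both WT/Mock clones (25.8 and 26.4 CPM). Ndufaf7 had 25.2 and 22.3 CPM in KO/ERRb-wt, also between the clones of KO/Mock and WT/Mock. All 3 comparisons among these groups share clones. In KO/ERRb-wt over WT/Mock, Ndufaf4 alone was higher (1 of 39, or 2.56%, against 4.68% of all genes) and 0 were lower (3.93% of all genes). Ndufaf4 had 51.9 and 60.8 CPM in KO/ERRb-wt, against 39.4 and 46.2 CPM in WT/Mock (log2 fold change 0.40, adjusted p = 0.0462). No gene was called without KO/ERRb-wt clone 8-4 or without WT/Mock clone 5-2. Without WT/Mock clone 5-5, 2 were called, Ndufaf4 and Ndufaf7. Ndufaf4 was not called when scaling used only genes outside the shifted chromosomes (0.37, adjusted p = 0.0569).

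Many complex I genes were higher with wild-type ERR gamma. Chromosomes 6 and 8 were shifted against KO/Mock in the clones of KO/ERRg-wt and the 3 mutants, but not in those of KO/ERRb-wt. Comparisons of these shifted groups with KO/Mock or KO/ERRb-wt cannot tell receptor and chromosome shift apart, also for genes outside the shifted chromosomes. In KO/ERRg-wt over KO/Mock, 20 of 39 genes were higher (51.3%), against 21.4% of all genes, and 1 was lower (2.56%), against 15% of all genes. The median log2 fold change of the 39 was 0.244, against 0.039 for all genes. By role, 14 of 24 accessory subunits, 2 of 3 core subunits of the N module, 1 of 4 core subunits of the Q module and 3 of 7 assembly factors were higher. Without KO/ERRg-wt clone 14-1-10, 13 genes were called. The genes called without each of the 4 clones in turn also numbered 13. These were Ndufa2, Ndufa6, Ndufa10, Ndufb4, Ndufb5, Ndufb8, Ndufb9, Ndufc1, Ndufs4, Ndufv2, Ndufaf3, Ndufaf6 and Ndufaf7.

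Ndufb4 had 32.2 and 30.9 CPM in KO/ERRg-wt, the highest of the 14 clones, against 18.6 and 19.9 CPM in KO/Mock. The log2 fold change was 0.71 ± 0.0776 (adjusted p = 6.94e-05). Ndufa6 had 104 and 107 CPM in KO/ERRg-wt, against 66.6 and 63.1 CPM in KO/Mock, with a log2 fold change of 0.71 ± 0.0732 (adjusted p = 5.19e-05). Among the assembly factors, Ndufaf7 had 27.6 and 27.7 CPM in KO/ERRg-wt, against 17.6 and 19.5 CPM in KO/Mock (0.57, adjusted p = 0.00454). Ndufaf6, a factor needed early in assembly, had 20.5 and 24.1 CPM in KO/ERRg-wt, against 15.3 and 15 CPM in KO/Mock (0.56, adjusted p = 0.00315). Ndufaf3 had 18.6 and 18.8 CPM in KO/ERRg-wt, against 12.7 and 13.6 CPM in KO/Mock (0.51, adjusted p = 0.00456). The groups did not overlap for any of these 5 genes, but neither did they for most of the 39, and the share of all genes was not counted. Ndufaf4 was the gene called lower. It had 44.7 and 45.9 CPM in KO/ERRg-wt, against 60.3 and 63.3 CPM in KO/Mock (-0.45, adjusted p = 0.00965), and was not called without KO/Mock clone 12-3 or KO/ERRg-wt clone 14-1-10.

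Complex I genes were also higher than with wild-type ERR beta, a comparison that shares the KO/ERRg-wt clones but not the KO/Mock clones. In KO/ERRg-wt over KO/ERRb-wt, 17 of 39 genes were higher (43.6%), against 14.5% of all genes, and 0 were lower, against 8% of all genes. With scaling by genes outside the shifted chromosomes, 12 were higher and 1 lower. The median was 0.219, against 0.025 for all genes. Ndufb9, an accessory subunit of the distal membrane arm, had 161 and 158 CPM in KO/ERRg-wt, against 112 and 109 CPM in KO/ERRb-wt (0.52 ± 0.0536, adjusted p = 9.7e-05). Ndufa6 and Ndufb4 were next, at 0.50 (adjusted p = 0.000698) and 0.48 (adjusted p = 0.0013), followed by Ndufaf6 at 0.35 (adjusted p = 0.0446) and Ndufb10 at 0.34 (adjusted p = 0.00994). The count was 5 without KO/ERRb-wt clone 8-4 (Ndufs1 and the genes named next), 4 without KO/ERRg-wt clone 14-1-10 and 9 without KO/ERRg-wt clone 14-11. Ndufa6, Ndufa10, Ndufb4 and Ndufb9 were called without each clone in turn.

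**Figure D3:**
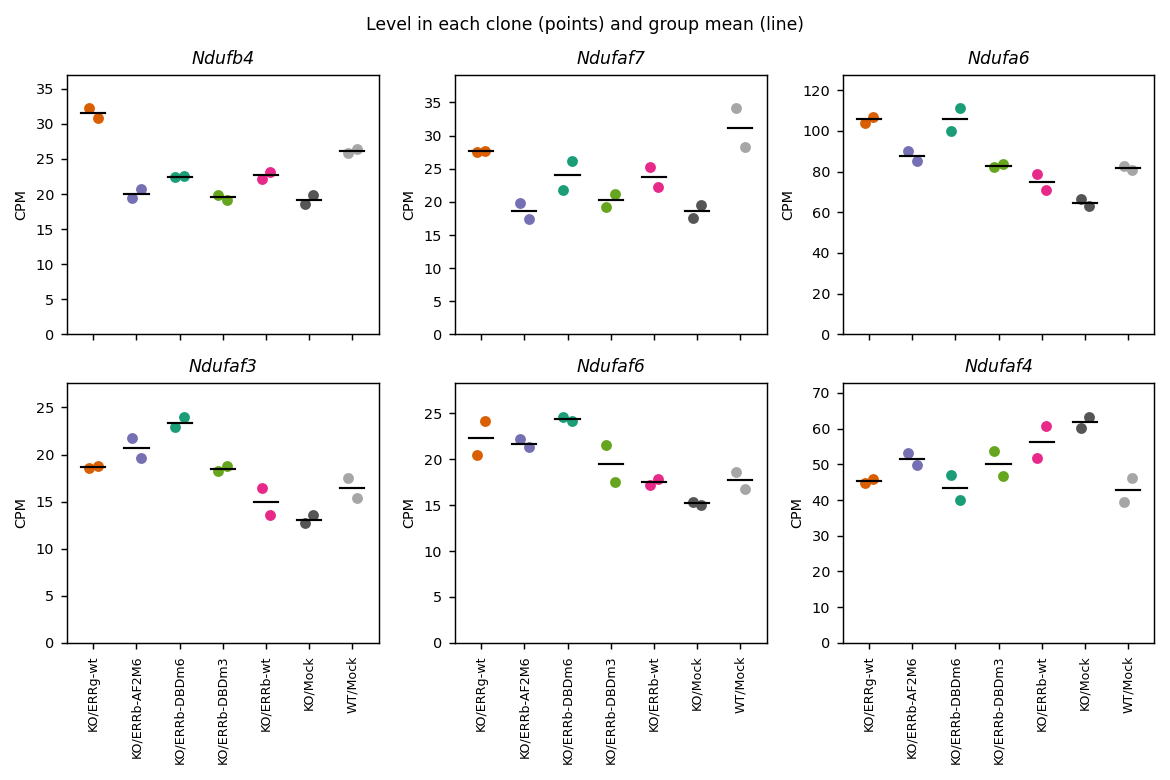
CPM of 6 complex I genes in the 2 clones of each group (points), with the group mean (line) and each axis starting at 0. Ndufb4 is highest in both KO/ERRg-wt clones and lowest in KO/Mock, KO/ERRb-AF2M6 and KO/ERRb-DBDm3. Ndufaf4 has its highest mean in KO/Mock, where Ndufa6, Ndufaf3 and Ndufaf6 have their lowest.

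With the TFIIH-binding mutant many complex I genes were higher as well. The comparisons of KO/ERRg-wt and the 3 mutants over KO/Mock all share the KO/Mock clones, so they are not independent. Those over KO/ERRb-wt likewise share its clones. In KO/ERRb-DBDm6 over KO/Mock, 18 of 39 were higher (46.2%), against 22.5% of all genes, and 4 were lower (10.3%), against 15.9% of all genes. With scaling by genes outside the shifted chromosomes, 13 were higher and 4 lower. The median was 0.209, against 0.046 for all genes. Ndufaf3 had 22.9 and 24 CPM in KO/ERRb-DBDm6, against 12.7 and 13.6 CPM in KO/Mock, with a log2 fold change of 0.84 ± 0.111 (adjusted p = 0.0002). Ndufa6 had 100 and 111 CPM in KO/ERRb-DBDm6, against 66.6 and 63.1 CPM in KO/Mock (0.71 ± 0.0728, adjusted p = 4.44e-05). Ndufaf6 had 24.6 and 24.1 CPM in KO/ERRb-DBDm6, against 15.3 and 15 CPM in KO/Mock (0.69, adjusted p = 0.000735). Smaller increases were 0.40 for Ndufb9, 0.38 for Ndufs4, an accessory subunit of the N module, and 0.23 for Ndufb4 (adjusted p = 0.035). The 4 lower genes were Ndufaf4 (-0.51, adjusted p = 0.00412), Ndufaf2 (-0.32, adjusted p = 0.0213), Ndufa12 (-0.21, adjusted p = 0.0254) and Ndufa1 (-0.21). Ndufaf2 is an assembly factor and a paralogue of Ndufa12, the accessory subunit that takes its place in the finished complex. Counts were 14 without KO/ERRb-DBDm6 clone 10-24, 10 without KO/ERRb-DBDm6 clone 10-26, 12 without KO/Mock clone 12-1 and 11 without KO/Mock clone 12-3. Ndufa6, Ndufa10, Ndufb5, Ndufb9, Ndufs1, Ndufs4, Ndufv2, Ndufaf3 and Ndufaf6 were called without each of the 4 clones, and none of the 4 lower genes was.

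Against wild-type ERR beta, more genes were higher than lower as well. In KO/ERRb-DBDm6 over KO/ERRb-wt, 13 of 39 genes were higher (33.3%), against 20.8% of all genes, and 1 was lower (2.56%), against 14.8%. With scaling by genes outside the shifted chromosomes, 12 were higher and 3 lower. The median was 0.126, against 0.021 for all genes. Ndufaf3 had 22.9 and 24 CPM in KO/ERRb-DBDm6, against 16.4 and 13.6 CPM in KO/ERRb-wt (0.64, adjusted p = 0.000917). Other increases were 0.50 for Ndufa6, 0.48 for Ndufaf6, 0.43 for Ndufb9 and 0.42 for Ndufv3, an accessory subunit of the N module. Ndufb4 did not pass the test here: it had 22.5 and 22.6 CPM in KO/ERRb-DBDm6, against 22.2 and 23.1 CPM in KO/ERRb-wt, so the clones overlapped. Ndufaf4 was lower (-0.38, adjusted p = 0.0209), a call lost without KO/ERRb-wt clone 8-4 or KO/ERRb-DBDm6 clone 10-26. Of the 14 calls, 10 held without each clone in turn.

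With the DNA-binding mutant, the shares of complex I genes called were near those of all genes. In KO/ERRb-DBDm3 over KO/Mock, 7 of 39 were higher (17.9%), against 13.5% of all genes, and 3 were lower (7.69%), against 8.31%. With scaling by genes outside the shifted chromosomes the split turned to 3 higher and 4 lower, 6 of the 10 calls remained, and Ndufaf6 (adjusted p = 0.0561) and Ndufb5 (adjusted p = 0.0633) were among those lost. The median was 0.072, against 0.042 for all genes. The higher genes included Ndufaf3 (0.49, adjusted p = 0.00828), Ndufaf6 (0.36, adjusted p = 0.0356), Ndufa6 (0.35, adjusted p = 0.00547), Ndufb9 (0.23) and Ndufb5 (0.21). The lower genes were Ndufaf2 (-0.31), Ndufs6 (-0.27) and Ndufa12 (-0.23). Ndufb4 was not among them: it had 19.9 and 19.2 CPM in KO/ERRb-DBDm3, against 18.6 and 19.9 CPM in KO/Mock. Without KO/Mock clone 12-1 the count was 1 (Ndufa6), without KO/Mock clone 12-3 it was 1 (Ndufaf3), and without KO/ERRb-DBDm3 clone 9-8 it was 3 (Ndufa6, Ndufaf3 and Ndufaf6). No call held without each clone in turn. Against wild-type ERR beta, 5 of 39 genes were higher (12.8%), against 16.6% of all genes, and 1 was lower (2.56%), against 11.9%. With scaling by genes outside the shifted chromosomes this split also turned, to 3 higher and 4 lower: 4 of the 6 calls remained, and Ndufa11 (adjusted p = 0.0795) and Ndufs1 (adjusted p = 0.0537) were lost. The higher ones were Ndufv3 (0.39), Ndufb9 (0.26), Ndufa10 (0.23), Ndufa11 (0.19) and Ndufs1 (0.18), of which Ndufb9 alone held without each clone in turn. The lower one was Ndufa4l2, at 0.436 and 0.455 CPM in KO/ERRb-DBDm3, against 1.48 and 0.632 CPM in KO/ERRb-wt (-1.25, adjusted p = 0.0308). That call was lost without KO/ERRb-wt clone 8-3, when the value was -0.50 (adjusted p = 0.374), and without KO/ERRb-DBDm3 clone 9-6 or 9-8. Without KO/ERRb-wt clone 8-4, 3 genes were called, Ndufa4l2, Ndufb9 and Ndufs1.

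With the coactivator-binding mutant, complex I genes were called in both directions. In KO/ERRb-AF2M6 over KO/Mock, 12 of 39 genes were higher (30.8%), against 19.7% of all genes, and 4 were lower (10.3%), against 13.8%. With scaling by genes outside the shifted chromosomes, 8 were higher and 5 lower. The median was 0.068, against 0.047 for all genes. By role, 3 of 7 assembly factors were higher and 1 was lower, and 5 of 24 accessory subunits were higher and 3 lower. The higher genes included Ndufaf3 (0.66, adjusted p = 0.000961), Ndufaf6 (0.52, adjusted p = 0.00412), Ndufa6 (0.43, adjusted p = 0.000904) and Ndufs4 (0.32, adjusted p = 0.00397). The lower genes were Ndufaf2 (-0.28), Ndufa8 (-0.27), Ndufa12 (-0.21) and Ndufs6 (-0.18). The count was 7 without KO/ERRb-AF2M6 clone 32-25, 9 without KO/ERRb-AF2M6 clone 32-31, 4 without KO/Mock clone 12-1 and 6 without KO/Mock clone 12-3. Ndufa6, Ndufb9, Ndufaf3 and Ndufaf6 were called without each clone in turn. Ndufb4 had 19.4 and 20.7 CPM in KO/ERRb-AF2M6 and overlapped KO/Mock. In KO/ERRb-AF2M6 over KO/ERRb-wt, 11 of 39 were higher (28.2%), against 22.2% of all genes, and 1 was lower (2.56%), against 17.5%. With scaling by genes outside the shifted chromosomes, 9 were higher and 6 lower, and without KO/ERRb-wt clone 8-4, 5 were higher and 4 lower. Of the 12 calls, 4 held without each clone in turn, among them Ndufb9, Ndufs1 and Ndufaf1. The higher genes included Ndufaf3 (0.46), Ndufv3 (0.37), Ndufb9 (0.35) and Ndufs7 (0.32), a core subunit of the Q module. The calls of Ndufaf3, Ndufv3 and Ndufs7 were lost without KO/ERRb-wt clone 8-4. The lower gene was Ndufaf7 (-0.35, adjusted p = 0.0422), at 19.9 and 17.4 CPM in KO/ERRb-AF2M6, against 25.2 and 22.3 CPM in KO/ERRb-wt. That call was lost without KO/ERRb-wt clone 8-3 (-0.25, adjusted p = 0.245), without KO/ERRb-AF2M6 clone 32-31 (-0.25, adjusted p = 0.231) and with RLE scaling (adjusted p = 0.0513).

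**Figure D4:**
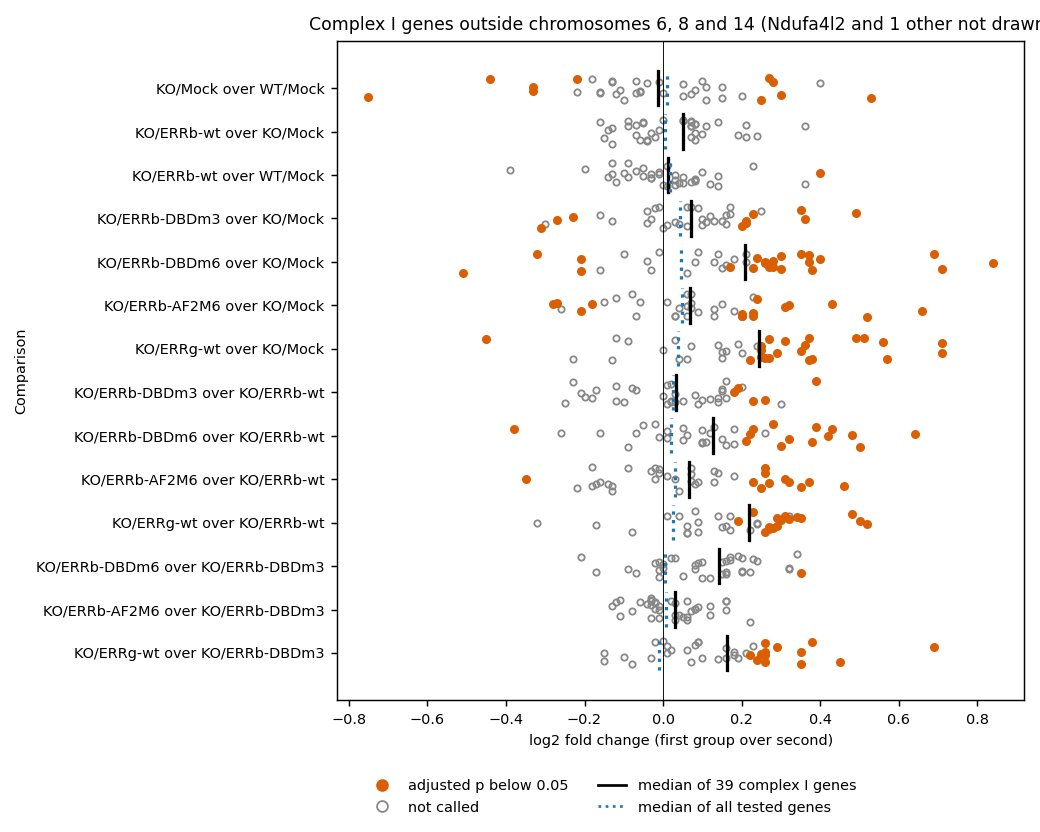
Log2 fold changes of the complex I genes outside chromosomes 6, 8 and 14 in each of the 14 comparisons, first group over second, with Ndufa4l2 and 1 other gene not drawn and filled points called at an adjusted p below 0.05. The solid line is the median of the 39 genes and the dotted line the median of all tested genes there. The 3 highest medians of the complex I genes are those of KO/ERRg-wt over KO/Mock (0.244) and over KO/ERRb-wt (0.219) and of KO/ERRb-DBDm6 over KO/Mock (0.209).

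ERR gamma also differed from the DNA-binding mutant in a direct comparison. Chromosome 6 differed over KO/ERRb-DBDm3 too, with a median log2 fold change of 0.272 in KO/ERRg-wt, -0.298 in KO/ERRb-DBDm6 and -0.317 in KO/ERRb-AF2M6. Receptor and chromosome shift thus cannot be told apart in these comparisons either. In KO/ERRg-wt over KO/ERRb-DBDm3, 13 of 39 genes were higher (33.3%), against 13% of all genes, and 0 were lower, against 10.9%. The median was 0.162, against -0.01 for all genes. Ndufb4 had 32.2 and 30.9 CPM in KO/ERRg-wt, against 19.9 and 19.2 CPM in KO/ERRb-DBDm3 (0.69 ± 0.0774, adjusted p = 0.000347). It was followed by Ndufaf7 (0.45), Ndufaf5 (0.38), Ndufa6 (0.35) and Ndufc1, an accessory subunit of the membrane arm (0.35). The count was 8 without KO/ERRb-DBDm3 clone 9-8, 4 without KO/ERRg-wt clone 14-1-10 (Ndufa6, Ndufb4, Ndufb8 and Ndufc1) and 2 without KO/ERRg-wt clone 14-11 (Ndufb4 and Ndufb9), and Ndufb4 alone held without each clone in turn. In KO/ERRb-DBDm6 over KO/ERRb-DBDm3, Ndufa6 was the 1 gene called (2.56%), against 1.71% higher and 1.25% lower of all genes. It had 100 and 111 CPM in KO/ERRb-DBDm6, against 82 and 83.6 CPM in KO/ERRb-DBDm3 (0.35 ± 0.0723, adjusted p = 0.0285). The median of the 39 was 0.143, against 0.004 for all genes. An unadjusted p under 0.05 was found for 15, but the share of all genes under it was not counted. No gene was called without either KO/ERRb-DBDm6 clone, 10-24 or 10-26. Without KO/ERRb-DBDm3 clone 9-6, 4 were called (Ndufa6, Ndufaf5, Ndufaf6 and Ndufs6), and without clone 9-8, 2 (Ndufa6 and Ndufs4). In KO/ERRb-AF2M6 over KO/ERRb-DBDm3, edgeR called 0 genes, against 0.227% higher and 0.349% lower of all genes. There, 2 genes had an unadjusted p under 0.05, Ndufs4 among them, again without a share of all genes, and DESeq2 called 1. Without KO/ERRb-AF2M6 clone 32-25 edgeR called 1, and without KO/ERRb-DBDm3 clone 9-6 it called 1, Ndufaf5.

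Outside the shifted chromosomes, the 5 genes whose group means ranged most widely were Ndufa4l2 (range of 1.31 on the log2 scale), Ndufaf3 (0.836), Ndufaf7 (0.748), Ndufb4 (0.713) and Ndufa6 (0.707). Ndufa4l2 was low throughout, with clones between 0.436 CPM in KO/ERRb-DBDm3 and 1.48 CPM in KO/ERRb-wt, whose other clone was at 0.632 CPM. By group mean, Ndufaf3 and Ndufa6 were highest in KO/ERRb-DBDm6 and lowest in KO/Mock. Ndufb4 was highest in KO/ERRg-wt and lowest in KO/Mock, and Ndufaf7 was highest in WT/Mock and lowest in KO/Mock. From the highest mean to the lowest, Ndufb4 had the order KO/ERRg-wt (31.5 CPM), WT/Mock (26.1 CPM), KO/ERRb-wt (22.7 CPM), KO/ERRb-DBDm6 (22.5 CPM), KO/ERRb-AF2M6 (20 CPM), KO/ERRb-DBDm3 (19.6 CPM) and KO/Mock (19.2 CPM). The clones of KO/ERRb-wt and KO/ERRb-DBDm6 overlapped, as did those of the last 3 groups. Other genes were steady: Ndufb3 and Ndufb6, both accessory subunits of the membrane arm, ranged over 0.162 on the log2 scale.

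The 4 genes on chromosome 6 were lower with their chromosome in the 3 mutants. Relative to KO/Mock, the median of its 736 tested genes was -0.37 and -0.39 in the KO/ERRg-wt clones, -0.96 in both KO/ERRb-AF2M6 clones, -0.94 in both KO/ERRb-DBDm6 clones, and -0.41 and -0.93 in KO/ERRb-DBDm3 clones 9-6 and 9-8. It was 0 and 0.01 in the KO/ERRb-wt clones. In the KO/ERRg-wt clones, Ndufa4 (-0.37 and -0.41) and Ndufa5 (-0.33 and -0.37) were close to that median, whereas Ndufb2 (-0.09 and -0.1) and Ndufa9 (-0.14 and -0.19) were above it. Ndufa4 had 184 and 176 CPM in KO/ERRb-AF2M6, 189 and 176 CPM in KO/ERRb-DBDm6, and 292 and 185 CPM in KO/ERRb-DBDm3, against 377 and 388 CPM in KO/Mock. The 2 KO/ERRb-DBDm3 clones thus differed as their chromosome medians did. All 4 genes on chromosome 6 were called lower over KO/Mock in KO/ERRb-AF2M6 (71.5% of chromosome 6 genes), KO/ERRb-DBDm6 (68.8%) and KO/ERRb-DBDm3 (56.9%), and 0 were in KO/ERRg-wt (37.4%; smallest adjusted p = 0.055). Over KO/ERRb-wt the 4 were again lower in these mutants (73.9% of chromosome 6 genes in KO/ERRb-AF2M6, 72.7% in KO/ERRb-DBDm6 and 57.9% in KO/ERRb-DBDm3), and 0 were in KO/ERRg-wt (32.5%; smallest adjusted p = 0.0679). In KO/ERRb-DBDm3 some of these calls were lost without 1 KO/Mock or KO/ERRb-wt clone. Over KO/Mock, these were Ndufa4 without clone 12-3 (-0.66, against -0.68 with all clones) and Ndufb2 without clone 12-1 (-0.49) or 12-3 (-0.5, against -0.5). Over KO/ERRb-wt, they were Ndufa4 (-0.57, against -0.64) and Ndufa9 (-0.55, against -0.57) without clone 8-3. With each of the 4 clones left out in turn, values over KO/Mock lay between -1.05 and -0.39 for Ndufa4 and between -0.8 and -0.25 for Ndufb2. In KO/ERRg-wt over KO/ERRb-DBDm3, 3 of the 4 were higher, against 21.7% of chromosome 6 genes, at log2 fold changes of 0.45 for Ndufa9, 0.43 for Ndufa5 and 0.41 for Ndufb2. All 3 calls were lost without KO/ERRb-DBDm3 clone 9-8, when the values lay between 0.16 and 0.19, and without either KO/ERRg-wt clone, 14-1-10 or 14-11.

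Relative to KO/Mock, Ndufa5, an accessory subunit of the Q module, lay below the chromosome's median and Ndufb2, of the membrane arm, above it, in all 3 mutants. Ndufa5 had 37.7 and 37.1 CPM in KO/ERRb-AF2M6, against 89.6 and 91.8 CPM in KO/Mock (log2 fold change -1.28, adjusted p = 6.22e-05), where the median of chromosome 6 in this comparison was -0.961. Ndufb2 had 44.8 and 43.7 CPM in KO/ERRb-AF2M6, against 74.8 and 74.4 CPM in KO/Mock (-0.75, adjusted p = 0.00108). Over KO/ERRb-wt, Ndufb2 was at -0.94 and the chromosome median at -0.960. Whether either gene differs from its chromosome was not tested.

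On chromosome 8 the 2 genes parted. The median of its 795 tested genes over KO/Mock lay between -0.46 and -0.55 in the 8 clones of KO/ERRg-wt and the 3 mutants. Ndufb7, an accessory subunit at the intermembrane side of the membrane arm, had 80.6 and 76.7 CPM in KO/ERRg-wt, 69.7 and 71.6 CPM in KO/ERRb-AF2M6, 72.3 and 77.6 CPM in KO/ERRb-DBDm6, and 74.3 and 67.9 CPM in KO/ERRb-DBDm3, against 116 and 113 CPM in KO/Mock. It was called lower in each, at log2 fold changes of -0.54 in KO/ERRg-wt (59.1% of chromosome 8 genes were lower), -0.70 in KO/ERRb-AF2M6 (62.1%), -0.61 in KO/ERRb-DBDm6 (58%) and -0.69 in KO/ERRb-DBDm3 (58.6%). Over KO/ERRb-wt it was lower as well, at -0.49 in KO/ERRg-wt (59.5% of chromosome 8 genes were lower), -0.64 in KO/ERRb-AF2M6 (66.3%), -0.56 in KO/ERRb-DBDm6 (61.4%) and -0.63 in KO/ERRb-DBDm3 (63.9%). Ndufa13 (GRIM-19), an accessory subunit needed for assembly of the membrane arm, had 172 and 160 CPM in KO/ERRg-wt, 162 and 166 CPM in KO/ERRb-AF2M6, 175 and 196 CPM in KO/ERRb-DBDm6, and 153 and 161 CPM in KO/ERRb-DBDm3, against 167 and 167 CPM in KO/Mock. It was not called lower in any comparison, and was higher in KO/ERRb-DBDm6 than in KO/ERRb-wt (0.28, adjusted p = 0.0119; 5.03% of chromosome 8 genes were higher), a call lost without KO/ERRb-wt clone 8-4 or KO/ERRb-DBDm6 clone 10-26. In KO/Mock over WT/Mock the median of chromosome 8 was 0.022, and Ndufb7 was higher (0.21, adjusted p = 0.0324; 19% of chromosome 8 genes were higher). That call was lost without any 1 of the 4 clones (KO/Mock 12-1 or 12-3, WT/Mock 5-2 or 5-5), and with scaling by genes outside the shifted chromosomes (adjusted p = 0.0537).

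**Figure D5:**
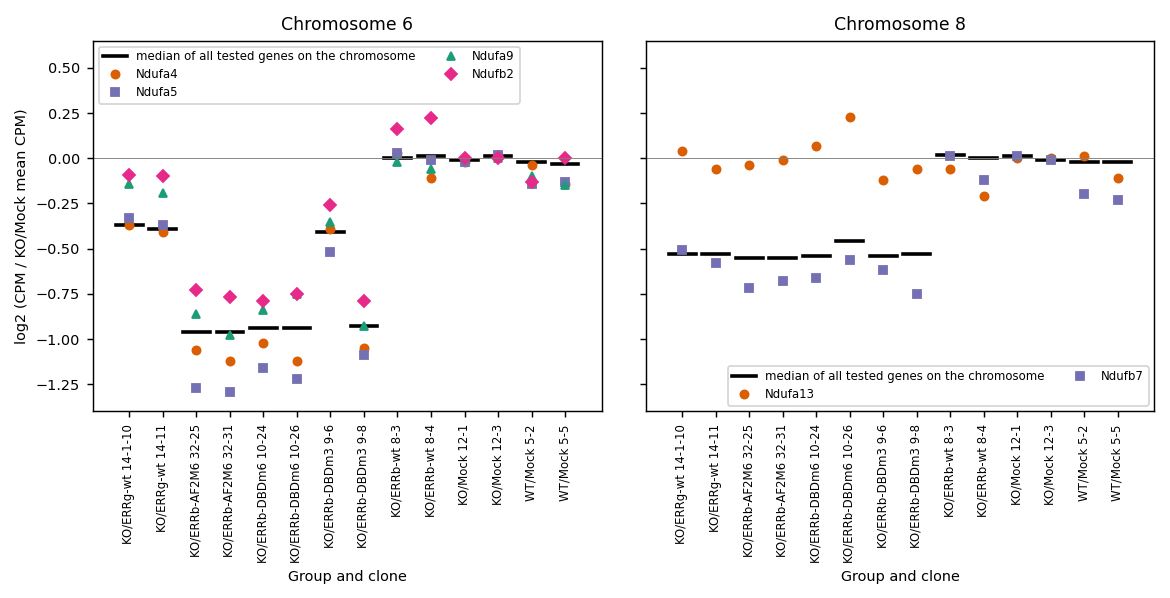
Log2 ratio of CPM to the KO/Mock mean for the complex I genes on chromosomes 6 and 8 in each clone (symbols), with the median of all tested genes of the chromosome (bars). On chromosome 6, Ndufb2 lies above the bars and Ndufa5 below them in the mutants, and Ndufb2 and Ndufa9 lie above them in KO/ERRg-wt. On chromosome 8, Ndufb7 lies near or below the bar while Ndufa13 stays near 0.

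Assembly factors of complex I with other names were compared as well. Of 14 listed, 13 were in the table and tested, 12 of them outside the shifted chromosomes. In KO/ERRg-wt over KO/Mock, 3 of the 12 were higher (21.4% of all genes) and 0 lower (15% of all genes). In KO/ERRb-AF2M6 over KO/Mock, 2 were higher (19.7% of all genes) and 3 lower (13.8%), in KO/ERRb-DBDm6 3 were higher (22.5%) and 2 lower (15.9%), and in KO/ERRb-DBDm3 2 were higher (13.5%) and 1 lower (8.31%). In KO/ERRb-wt over KO/Mock 0 were called by edgeR (1.11% of all genes higher and 0.811% lower). In KO/Mock over WT/Mock, 1 was higher (18.8% of all genes) and 4 were lower (17.9%). Timmdc1, which helps build the proximal membrane arm, averaged 39.4 ± 0.564 CPM in KO/ERRg-wt and 26.8 ± 0.275 CPM in KO/Mock (log2 fold change 0.56, adjusted p = 0.00114). It also averaged 26.8 ± 0.275 CPM in KO/Mock and 36.1 ± 1.79 CPM in WT/Mock (-0.43, adjusted p = 0.00544). Nubpl, which delivers iron-sulfur clusters, averaged 20.1 ± 0.191 CPM in KO/ERRg-wt and 14.4 ± 1.17 CPM in KO/Mock (0.48, adjusted p = 0.0117). Tmem70, also known for assembly of ATP synthase, was 1.16 higher on the log2 scale in KO/ERRb-AF2M6 than in KO/Mock and 1.02 higher in KO/ERRb-DBDm6. Foxred1 was lower in KO/ERRb-AF2M6 (-0.39, adjusted p = 0.0015), KO/ERRb-DBDm6 (-0.26, adjusted p = 0.0111) and KO/ERRb-DBDm3 (-0.26, adjusted p = 0.0201) over KO/Mock, and was not called in KO/ERRg-wt (-0.05).

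Known regulators of nuclear respiratory genes were listed for comparison. Of 11 listed, 10 were tested and 9 lay outside the shifted chromosomes. In KO/ERRg-wt over KO/Mock, 3 of these 9 were higher (Esrrg, Esrrb and Gabpa, against 21.4% of all genes) and 2 lower (Pprc1 and Tfam, against 15%). Esrrg is the receptor put into KO/ERRg-wt, so its call was fixed by the design, and Esrrb is the gene targeted in the knockout. Gabpa, the ETS factor of respiratory promoters, averaged 180 ± 4.07 CPM in KO/ERRg-wt and 139 ± 5.11 CPM in KO/Mock (0.38, adjusted p = 0.00112), and it was also higher in KO/ERRb-DBDm6 (0.32) and KO/ERRb-AF2M6 (0.28). In KO/ERRb-AF2M6 over KO/Mock, Gabpb1, the partner of Gabpa, was higher too (0.22, adjusted p = 0.0497). In KO/ERRb-DBDm3 over KO/Mock, the 1 of 9 called was Esrrb (higher), against 13.5% higher and 8.31% lower of all genes. That group also carried Esrrb as a construct. In KO/Mock over WT/Mock, Tfam (0.42), which packages and transcribes mitochondrial DNA, and Pprc1 (0.31), a PGC-1 related coactivator, were higher (18.8% of all genes). Esrrb was lower (17.9% of all genes). The PGC-1 alpha gene Ppargc1a was at or below 0.0569 CPM on average in every group. Nrf1 lies on chromosome 6 and averaged 96.1 ± 1.48 CPM in KO/ERRg-wt and 127 ± 0.33 CPM in KO/Mock (-0.41, adjusted p = 0.00725), where that chromosome's median was -0.377. Nrf1 averaged 99.9 ± 6.56 CPM in WT/Mock and was called higher in KO/Mock than in WT/Mock. In that comparison the chromosome's median was 0.033, and 99 of its 736 tested genes were higher.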

How the data were processed

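RNA was sequenced from 26 stranded, ribosomal-RNA-depleted libraries of 14 ESC clones (single-end reads of 100 bases), per the labels' protocols. Reads were aligned with STAR 2.7.8a to mm10 and counted per gene over exons with featureCounts, 2.0.10 per the submitters' processing notes and 2.0.1 per the file headers. The deposited values are raw counts per gene, reverse-stranded, with reads that overlap several genes given to each and multi-mapping reads left out, per the file headers.

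Libraries of a clone were summed. Genes were kept with filterByExpr and scaled by TMM (factors 0.972 to 1.05), and 14 comparisons were tested in 1 fit of all groups with edgeR 4.0.16 (robust quasi-likelihood, R 4.3.3). Adjusted p-values are Benjamini-Hochberg over all 15238 genes, and called means below 0.05. SE is the absolute log2 fold change divided by the square root of F. Errors of means are SD over 2 clones. The biological coefficient of variation was 0.116 with 7 residual degrees of freedom. The fit was tested on simulated counts.

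Alternatives were RLE scaling, no filter, DESeq2 1.42.0, TMM from genes outside chromosomes 6, 8 and 14, leaving out each clone, and limma-voom 3.58.1 with a replicate block. Values of 1 gene are not reported here; it stays in the counts and medians. Genes, lists and motifs were chosen with earlier results of these data known. Named genes are up to 5 called per direction and comparison, those on chromosomes 6 and 8, the 5 highest and lowest per kb and the 5 with the widest range; a few others are named for steadiness, or to complete a count of 5 or fewer, after their values were seen.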

Additional observations from a re-analysis of the deposited data

How the results depend on the processing

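Of 123 recounts of called genes outside chromosomes 6, 8 and 14, 84 stayed within 1.5 times the reported count. With RLE scaling, all 14 did. Without a filter on low counts, KO/ERRb-DBDm3 over KO/Mock had 6 calls, and with TMM from genes outside the shifted chromosomes KO/ERRb-wt over WT/Mock had 0. DESeq2 gave 2 calls for KO/ERRb-wt over WT/Mock, 3 for KO/ERRb-DBDm6 over KO/ERRb-DBDm3 and 1 for KO/ERRb-AF2M6 over KO/ERRb-DBDm3. The cause of these differences was not tested. Leaving out 1 clone assumes that the lone clone varies like the other groups, and gave 4 to 9 calls for KO/Mock over WT/Mock and 0 to 2 for KO/ERRb-wt over WT/Mock. Over KO/Mock it gave 1 to 13 for KO/ERRb-DBDm3, 10 to 14 for KO/ERRb-DBDm6, 4 to 9 for KO/ERRb-AF2M6 and 13 to 18 for KO/ERRg-wt. Over KO/ERRb-wt it gave 3 to 8 for KO/ERRb-DBDm3 and 4 to 19 for KO/ERRg-wt. Over KO/ERRb-DBDm3 it gave 0 to 4 for KO/ERRb-DBDm6, 0 to 1 for KO/ERRb-AF2M6 and 2 to 14 for KO/ERRg-wt. For 109 pairs of a named gene and a comparison, 960 values were recomputed: 802 stayed called in the same direction, 158 lost the call, 129 of them without 1 clone, and 0 changed sign.

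Library numbers are shared between groups, and the numbers were not taken to pair the samples: 11 of 66 pairs of clones had a correlation over 0.1 (lowest -0.152, median 0.00863, highest 0.436). With a replicate block and unsummed libraries, not run for KO/ERRg-wt, counts were 2 for KO/ERRb-wt over WT/Mock, 2 for KO/ERRb-DBDm6 over KO/ERRb-DBDm3 and 1 for KO/ERRb-AF2M6 over KO/ERRb-DBDm3, and 8 of 88 named calls were lost. Over all genes, DESeq2 and the replicate block called 930 and 553 for KO/ERRb-wt over KO/Mock (edgeR 282), 1278 and 1094 for KO/ERRb-DBDm6 over KO/ERRb-DBDm3 (edgeR 466), and 554 and 426 for KO/ERRb-AF2M6 over KO/ERRb-DBDm3 (edgeR 98). With 2 clones per group, the median SE of the genes was 0.0726 on the log2 scale in KO/Mock over WT/Mock, which limits what small differences can show.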
